A study of Mus musculus with 22 samples.

Results

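Open chromatin in the frontal cortex of mice was compared between 24 h and 12 h after lipopolysaccharide (LPS), a component of the bacterial cell wall that provokes systemic inflammation. The comparison rests on the peak lists of 6 ATAC-seq libraries, 3 collected at 24 h (replicates 1, 3 and 4) and 3 at 12 h (replicates 1, 3 and 4), out of 22 libraries from 11 animals in the series. They were taken by their tissue and time labels, and each library comes from 1 animal of its own. Every mouse in both groups was an adult male wild type C57BL/6J animal from a model of Gulf War Illness. It drank corticosterone (CORT), the main glucocorticoid of rodents, for 7 days, was injected with diisopropyl fluorophosphate (DFP), an organophosphate that inhibits acetylcholinesterase, on day 8, and had CORT at intervals over 5 weeks before LPS. The labelled groups therefore share CORT, DFP and LPS and differ in the time of collection. Saline animals of this series were all collected at 6 h, so neither time has a saline control of its own. The LPS dose and the hour of day of collection are not given in the sources used here, and time after LPS and hour of day cannot be told apart.

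ATAC-seq uses a transposase that inserts adapters where DNA is not wrapped in nucleosomes, so its peaks mark active promoters and distal regulatory elements. LPS is sensed through Toll-like receptor 4 and activates NF-kB, which opens and drives cytokine, chemokine and adhesion genes in microglia and in the cells of brain vessels. Glucocorticoids restrain that response through the glucocorticoid receptor, and both follow a daily cycle set by the clock genes. In a bulk library a peak sums over all cell types of the piece of tissue, so fewer cells of a type and less open chromatin per cell cannot be told apart.

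Peaks of the 6 libraries were placed on 367649 consensus windows that reach 250 bp to each side of a summit. A window counted as present in a library where a peak interval covered at least 50% of the shorter of the interval and the window. It was called towards 24 h where it was present in all 3 24 h libraries and in no 12 h library, and towards 12 h in the converse case. With 3 libraries against 3 no test of a single window can give an exact p below 0.1, so a call is a description and carries no p. Towards 24 h 7504 windows were called, 2.04% of all, and towards 12 h 514, which is 0.14%.

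Few called windows lay at gene starts, and among the genes of 19 lists of response genes and cell type markers 4 promoters were overlapped by one. All 4 windows were called towards 24 h. Their promoter sequences are shown because they are the sites where the comparison reaches the start of a marker gene. Six3 encodes a homeobox factor of the developing forebrain (window chr17:85620540-85621040), and Doc2g a synaptic C2 domain protein listed here as an olfactory bulb marker (chr19:4003043-4003543). Abcc9 encodes the sulfonylurea receptor subunit of potassium channels in pericytes (chr6:142702022-142702522), and Slc7a10 an astrocytic transporter of small neutral amino acids (chr7:35186100-35186600). The promoter is given from 250 bases before to 50 after the annotated start on the gene's own strand, from RefSeq on GRCm38.p6. A lone capital marks the first transcribed base, and the longer run in capitals marks a match to the glucocorticoid receptor motif searched below.
Six3: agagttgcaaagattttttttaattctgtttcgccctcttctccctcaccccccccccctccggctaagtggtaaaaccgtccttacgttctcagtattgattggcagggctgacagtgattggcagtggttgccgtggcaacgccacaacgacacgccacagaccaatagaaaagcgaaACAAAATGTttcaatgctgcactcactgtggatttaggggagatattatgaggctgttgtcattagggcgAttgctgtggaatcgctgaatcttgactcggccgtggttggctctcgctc
Doc2g: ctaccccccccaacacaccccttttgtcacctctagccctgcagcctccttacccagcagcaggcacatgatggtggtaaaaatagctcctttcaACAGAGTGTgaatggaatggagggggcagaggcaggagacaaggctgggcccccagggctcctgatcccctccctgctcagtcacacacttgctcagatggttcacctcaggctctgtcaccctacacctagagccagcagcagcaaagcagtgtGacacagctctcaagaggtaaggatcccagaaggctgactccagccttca
Abcc9: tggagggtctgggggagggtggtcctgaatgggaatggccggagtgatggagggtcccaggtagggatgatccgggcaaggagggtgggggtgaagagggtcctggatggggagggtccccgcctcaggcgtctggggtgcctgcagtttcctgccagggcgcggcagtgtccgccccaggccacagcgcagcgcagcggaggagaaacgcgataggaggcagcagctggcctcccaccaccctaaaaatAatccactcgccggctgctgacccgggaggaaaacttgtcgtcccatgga
Slc7a10: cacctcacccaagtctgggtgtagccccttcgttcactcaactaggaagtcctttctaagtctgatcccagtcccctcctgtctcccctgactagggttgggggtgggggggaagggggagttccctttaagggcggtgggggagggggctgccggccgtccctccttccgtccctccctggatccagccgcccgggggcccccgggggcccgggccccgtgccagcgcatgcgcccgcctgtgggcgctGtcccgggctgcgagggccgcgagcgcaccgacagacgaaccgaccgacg
The 4 promoters lie at chr17:85620584-85620883 (plus strand), chr19:4003135-4003434 (plus strand), chr6:142702225-142702524 (minus strand) and chr7:35186135-35186434 (plus strand).

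The window at the Six3 start held the strongest peaks of the 4. The authors' fold over background there was 5.23, 4.07 and 3.74 in 24 h libraries 1, 3 and 4, and no interval touched the window in any 12 h library. The fold, score and q value of a peak are the authors' own values, and they serve here only to describe and rank peaks within a library. At Doc2g the fold was 2.02, 2.55 and 2.19, at Abcc9 2.18 to 2.50, and at Slc7a10 3.36, 2.14 and 2.80 in the same libraries, and again no 12 h library had a touching interval. These are weak peaks. Outside the comparison, the Six3 window had a peak in 2 of 3 cortex libraries collected 6 h after LPS and in 1 of 2 cortex saline libraries, so it was not confined to 24 h. In the authors' deposited table it lay in a region higher at 24 h than in saline (FDR 5.22e-04), which they annotate to Six3 and to its antisense neighbour Six3os1. The Slc7a10 window had a peak in cortex library 4 at 6 h after LPS and in both cortex saline libraries. At Abcc9 cortex saline library 2 had one, and at Doc2g cortex library 1 at 6 h after LPS.

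Across all genes, promoters of 81 genes were overlapped by a window called towards 24 h and promoters of 8 genes by one called towards 12 h, counting 1 promoter a gene and leaving out chromosome 18. Short motifs were searched in them on both strands. The glucocorticoid receptor motif ACANNNTGT was found in 10 of the 81 promoters (12.35%), in 1 of the 8 on the 12 h side and in 1864 of 27025 promoters of all genes (6.9%). The AP-1 motif TGANTCA, bound by Jun and Fos proteins, was in 12 of the 81 (14.81%), in 1 of the 8 and in 7.91% of all. The half-site AGGTCA of ROR and REV-ERB nuclear receptors was in 18 of the 81 (22.22%), in 2 of the 8 and in 16.21% of all. The E-box CACGTG, the site of the clock factors, was in 3 of the 81 (3.7%), in 3 of the 8 and in 7.09% of all promoters. At those 3 promoters on the 12 h side, Cgref1, Gm26885 and Lat, intervals of 3, 3 and 1 of the 24 h libraries touched the called window. They do not count as sites open at 12 h only. An NF-kB motif was in 1 of the 81, in none of the 8 and in 0.41% of all, and a core of the interferon-stimulated response element in 2 of the 81, in none of the 8 and in 3.52% of all. Among promoters of 13047 genes with a peak in all 6 libraries the glucocorticoid motif was in 3.92%, the AP-1 motif in 5.24%, the ROR half-site in 10.53% and the E-box in 9.85%, while the NF-kB motif was in 0.34% and the interferon core in 2.87%. These counts describe letters, and no test was made.

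The 24 h libraries held more peaks. Their distinct peak intervals numbered 266451, 243851 and 280936 in replicates 1, 3 and 4, against 217207, 238297 and 238446 in the 12 h libraries. The lowest 24 h library lay above the highest 12 h library. The mean was 263746 ± 18690 at 24 h and 231317 ± 12220 at 12 h (SD, n = 3 each), a difference of 32429 intervals. The exact permutation test over all 20 splits gave a two-sided p = 0.1, the smallest that 3 against 3 allow, and an adjusted p = 0.15 over 6 library measures. Covered length was 103.9 ± 2.67 Mb at 24 h and 91.4 ± 3.14 Mb at 12 h (SD, n = 3 each), also without overlap (exact permutation p = 0.1). The share of intervals within 1 kb of the start or end of a protein-coding gene was 8.55% ± 0.195 at 24 h and 9.37% ± 0.221 at 12 h (SD, n = 3 each, exact permutation p = 0.1, adjusted p = 0.15). It counts both ends of a gene, so it does not measure promoters alone. The median interval was 325 ± 16 bp at 24 h and 321 ± 12.9 bp at 12 h (SD, n = 3 each, exact permutation p = 0.8). Peak lists carry no read depth, so the part of sequencing depth in these numbers was not tested. In the hippocampus of the same animals the mean was 258927 ± 17836 at 24 h and 266234 ± 17975 at 12 h (SD, n = 3 each, exact permutation p = 0.6).

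**Figure D1:**
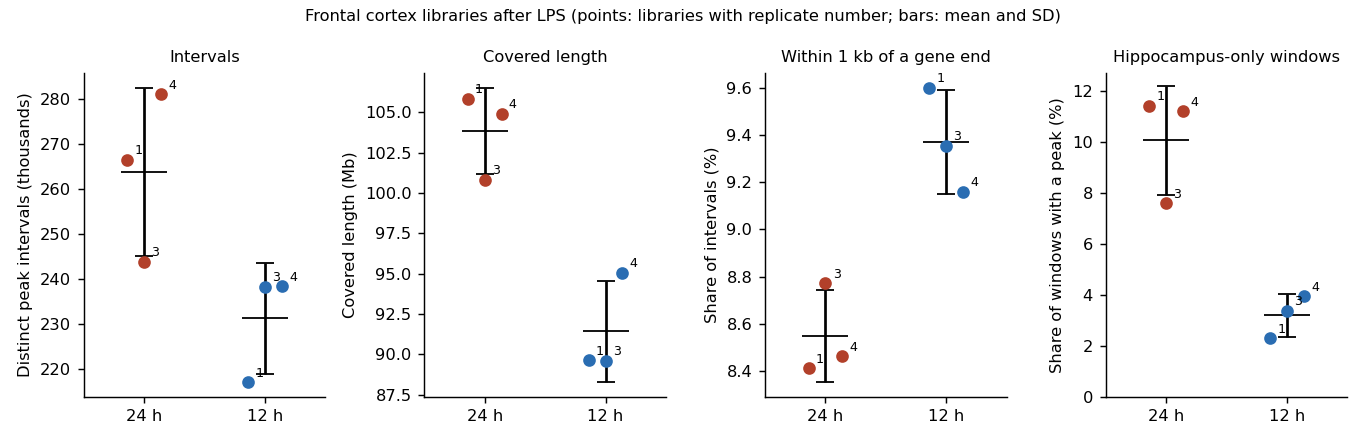
Each point is 1 frontal cortex library, labelled with its replicate number, and each bar gives the mean and SD of 3 libraries at 24 h or 12 h. The panels show distinct peak intervals, covered length in Mb, the share of intervals within 1 kb of either end of a gene and the share of hippocampus-only windows with a peak. In each panel the 2 groups do not overlap, and the first 3 axes do not start at 0.

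The labelled tissue was checked on windows that the comparison did not define. Among cortex and hippocampus libraries collected at 6 h after LPS or saline, 13440 windows had a peak in every cortex library and in no hippocampus library. Of these, 94.0%, 95.4% and 98.4% had a peak in 24 h libraries 1, 3 and 4, against 93.4%, 96.8% and 96.1% in the 12 h libraries. Start windows of Tbr1, Slc17a7 and Emx1, which mark cortical excitatory neurons, had a peak in all 6 libraries. Those of other cortical markers did not in every library. Neurod2 had 3, 3 and 3 of 3 at 24 h, against 2, 2 and 3 at 12 h, Neurod6 2, 2 and 2 of 2 at 24 h, against 2, 1 and 1 at 12 h, and Fezf2 2, 3 and 3 of 3 at 24 h, against 2, 2 and 2 at 12 h. Cux2 had 2, 1 and 3 of 3 at 24 h, against 1, 1 and 3 at 12 h, and Rorb 2, 3 and 3 of 3 at 24 h, against 3, 3 and 2 at 12 h, while Foxp2 had no window at the start. The converse set, 23369 windows open in every hippocampus and no cortex library at 6 h, had a peak more often at 24 h. The share was 11.4%, 7.60% and 11.2% in the 24 h libraries, against 2.29%, 3.37% and 3.94% in the 12 h libraries, without overlap. These values stand beside every count below, and their part in the calls was not tested. Of the windows called towards 24 h, 272 (3.62%) were hippocampus-only windows, against 1.41% of all windows, and without them 7232 remained.

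The balance between the directions moved with the length of the peak lists. A window called towards 24 h had a median −log10 q of 3.82 in the libraries that held it and a median fold of 2.91, and one called towards 12 h had 2.52 and 2.45. Windows with a peak in all 6 libraries, 168396 in number, had 16.6 and 5.08. When each library was cut to its 50000 highest peaks, 454 windows were called towards 24 h and 417 towards 12 h. With 100000 peaks the counts were 1040 and 729, with 150000 they were 1753 and 1074, and with 217207, the length of the shortest list, they were 3308 and 1388. The 24 h side thus held 52.1% of the calls with 50000 peaks a library and 93.6% in the full lists. A threshold on strength alone did not do the same: with peaks of a −log10 q of 5 or more, which leaves the lists unequal in length, 5211 windows were called towards 24 h and 168 towards 12 h, a share of 96.9%. A stricter call, chosen after the data were seen, asked for a peak in all 3 libraries of one time within lists of 217207 peaks and for no touching interval of the full lists at the other time. It gave 2539 windows towards 24 h (0.691% of all) and 232 towards 12 h (0.0631%).

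**Figure D2:**
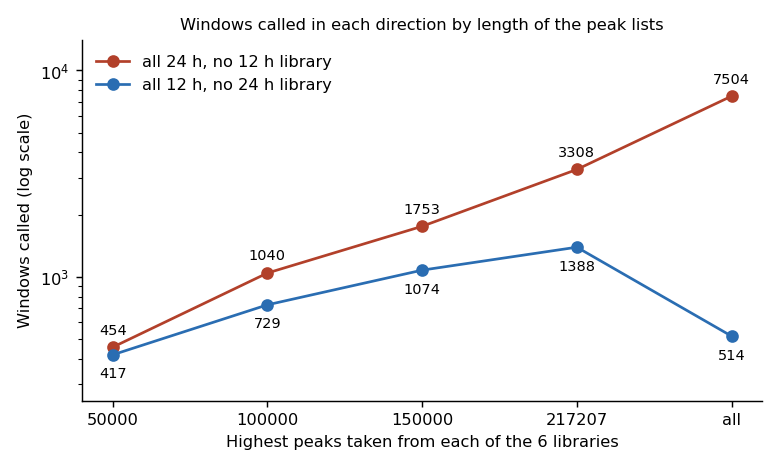
The number of windows called in each direction, on a log axis, against the number of highest peaks taken from each of the 6 libraries, with 217207 the length of the shortest list and "all" the full lists. The 2 directions start at 454 and 417 windows with 50000 peaks and reach 7504 and 514 with the full lists.

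Windows called towards 24 h were distal. Within 1 kb of an annotated start lay 217 of them (2.89%), against 7.91% of all windows and 11.9% of windows present in all 6 libraries. Of the windows called towards 12 h, 43 (8.37%) lay that near. Under the stricter call 56 windows towards 24 h (2.21%) and 7 towards 12 h (3.02%) did, so there the 2 directions lay closer together. More than 100 kb from any protein-coding gene lay 24.6% of the 24 h windows and 10.1% of the 12 h windows, against 14.3% of all. Inside gene bodies lay 48.9% of the 24 h and 67.5% of the 12 h windows, against 60.0% of all windows.

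Libraries outside the comparison place these windows in the course of the experiment. In cortex saline libraries 2 and 3, 34.3% and 14.6% of the 24 h windows had a peak, and in cortex libraries 1, 3 and 4 at 6 h after LPS, 64.3%, 11.1% and 27.7%. The 6 h libraries differed among themselves: replicate 1, with 244556 intervals, had most of the windows that the 12 h libraries lacked, and replicate 3, with 204599, had few. Saline libraries 2 and 3 held 265239 and 219391 intervals. Of the 12 h windows, saline libraries 2 and 3 held 52.1% and 38.5%, and the 6 h libraries 36.8%, 33.7% and 51.0%. In hippocampus 40.4% to 54.4% of the 24 h windows had a peak in any of 11 libraries, saline libraries included, while 1816 (24.2%) had one in all 11 and 1942 (25.9%) in none.

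The hippocampus of the same 6 animals gave no time difference at these windows that passed the test. The share of 24 h windows with a peak was 52.4%, 45.9% and 44.9% in hippocampus libraries 1, 3 and 4 at 24 h, against 45.8%, 54.4% and 48.5% at 12 h. Taken as an excess over the share of all windows, it averaged −8.10 ± 1.39 percentage points at 24 h and −7.11 ± 2.54 at 12 h (SD, n = 3 each), a difference of −0.99 (p = 0.7 by exact permutation, adjusted p = 0.7 over 2 tests). At the 12 h windows the difference was −2.66 points (exact permutation p = 0.2, adjusted p = 0.4). With 3 against 3 no p below 0.1 is possible, so these values do not show that the hippocampus was alike at both times.

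**Figure D3:**
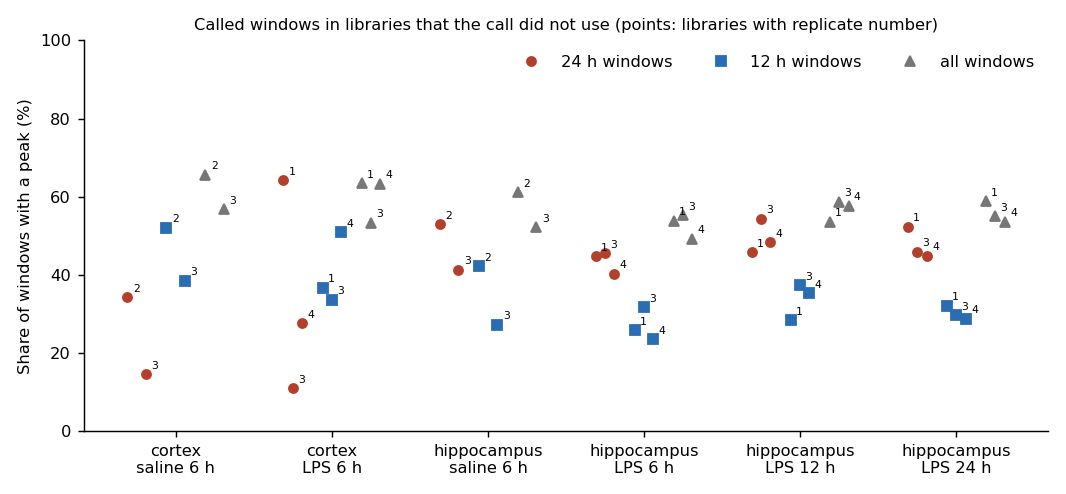
The share of called windows with a peak in each library that the call did not use, by tissue and group, with replicate numbers beside the points. Circles are windows called towards 24 h, squares windows called towards 12 h and triangles all 367649 windows; the cortex libraries at 6 h after LPS lie at 64.3%, 11.1% and 27.7% for the 24 h windows, while the 11 hippocampus libraries lie between 40.4% and 54.4%.

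The authors tested each time against the saline libraries on read counts in sliding windows. The authors' deposited table for 24 h holds 4986 regions higher than saline and 554 lower, and that for 12 h holds 7 higher and 45 lower. These tables share the saline libraries and were made from the libraries used here, so they are set beside the peaks and not tested. Of the 4986 higher regions in the authors' deposited table, 94.1%, 92.3% and 83.4% had a peak in the 24 h libraries, against 44.3%, 46.6% and 43.4% in the 12 h libraries. In the cortex libraries at 6 h after LPS 84.7%, 37.4% and 50.8% had one, and in the saline libraries 39.4% and 33.5%. Those regions thus lay low at 12 h in each library, and at 6 h they were high in replicate 1. They touched 1343 of the windows called towards 24 h, which is 26.9% of the regions and 17.9% of the windows. Of the 554 lower regions in the authors' deposited table, 63.7%, 48.0% and 63.2% had a peak at 24 h and 50.9%, 65.9% and 72.4% at 12 h, with overlap.

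Each window was given to the protein-coding gene whose body lay closest, up to 100 kb away, and lists were read against the 2.04% and 0.14% of all windows. By this call the list of striatal medium spiny neuron genes had the highest share of the 19 lists. Of its 1390 windows 51 (3.67%) were called towards 24 h and 1 towards 12 h, and 24 of its 31 genes had at least 1 window called towards 24 h. Foxp1, a transcription factor of striatal and cortical projection neurons, had 7 called windows. Arpp21, a cAMP-regulated phosphoprotein of striatal neurons, had 6 towards 24 h and 1 towards 12 h. Foxp2, a factor of striatal and deep-layer cortical neurons, and Pde10a, the striatal cyclic nucleotide phosphodiesterase, had 4 each, and Rarb and Adcy5 had 3 each.

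Over the whole striatal list, 75.2%, 66.3% and 71.9% of windows had a peak in 24 h libraries 1, 3 and 4, against 55.6%, 60.4% and 60.0% in the 12 h libraries. Over all windows these shares were 73.0%, 67.3% and 75.8% at 24 h, against 59.9%, 64.5% and 65.3% at 12 h, so both sets were apart between the times. The part of the piece of tissue taken was not tested. Peaks at single genes show how the libraries lay. Of the 58 windows of Foxp2, 46, 35 and 41 had a peak in the 24 h libraries, against 21, 28 and 31 in the 12 h libraries. Rarb, a retinoic acid receptor of striatal neurons, had 75, 71 and 73 of 89 at 24 h, against 56, 60 and 54 at 12 h. Neither gene's groups overlapped. For Foxp1 the counts were 139, 126 and 134 of 191 at 24 h, against 111, 116 and 126 at 12 h, and the groups met at 126. Among all 4492 genes with 20 or more windows, every 24 h library had more peaks than every 12 h library at 1246, which is 27.7%, and the converse held at 6 (0.134%). Of 19 striatal list genes of that size it held at 10. Tac1, the substance P precursor of direct pathway neurons, had 13, 11 and 14 of 19 windows with a peak at 24 h, against 4, 6 and 8 at 12 h.

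Strong windows of this list lay outside gene starts. A window 60418 bp from Penk, the enkephalin precursor (chr4:4199233-4199733), had a fold of 8.95, 8.39 and 3.89 in 24 h libraries 1, 3 and 4. One 20167 bp from Drd1, the D1 dopamine receptor gene (chr13:54030516-54031016), had 5.56, 6.79 and 3.89. In both the peak was weakest in 24 h library 4, and no interval touched the window at 12 h. Both had a peak in cortex library 1 at 6 h after LPS, and neither saline library had one. In the authors' deposited table both lay in regions higher at 24 h than in saline (FDR 5.34e-14 for Penk and 1.82e-09 for Drd1). Under the stricter call 16 of the 1390 windows (1.15%) were called towards 24 h and none towards 12 h, against 0.691% of all windows towards 24 h. By that call the olfactory bulb (2.5%), blood (1.85%), acute inflammatory (1.62%) and astrocyte lists (1.29%) had higher shares than the striatal list. With the 100000 highest peaks of each library 4 striatal list windows were called towards 24 h and 5 towards 12 h.

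Other lists of forebrain neurons outside the cortical projection class had shares above that of all windows too. So had the microglia, blood, hippocampal region, oligodendrocyte lineage, acute inflammatory and astrocyte lists. The endothelial and mural (2.18%) and immediate early lists (2.07%) lay near the 2.04% of all windows. Under the stricter call the blood, acute inflammatory and astrocyte lists lay above the 0.691% of all windows. Microglia (0.709%) and hippocampal region genes (0.692%) then lay near it. Oligodendrocyte lineage (0.634%), immediate early (0.517%) and endothelial and mural genes (0.436%) then lay below it. For inhibitory neurons 23 of 705 windows (3.26%) were called towards 24 h and 1 towards 12 h. Adarb2, a marker of interneurons from the caudal ganglionic eminence, had 5 of them, and Gad2, a GABA-synthesising enzyme, had 3. Of 20 Gad2 windows 15, 11 and 12 had a peak at 24 h, against 7, 6 and 9 at 12 h, and of 100 Erbb4 windows 73, 67 and 67 at 24 h, against 48, 47 and 45 at 12 h. Both genes' groups were apart. That held at 7 of the 13 list genes with 20 or more windows, against 27.7% of all genes of that size. For olfactory bulb genes 10 of 320 windows (3.12%) were called towards 24 h, 8 of them under the stricter call, and for septum and ventral forebrain genes 9 of 304 (2.96%). Neither had a window towards 12 h. Cortical layer and projection neuron genes stood at 30 of 1585 (1.89%) and 2, and excitatory neuron and synapse genes at 52 of 3339 (1.56%) and 6, both below the 2.04% of all windows. Syt6, a synaptotagmin of layer 6 neurons, had 5 of the cortical ones.

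Hippocampal region genes had 15 of 578 windows (2.60%) called towards 24 h and none towards 12 h. Zbtb20, a transcription factor of hippocampal pyramidal and granule neurons, had 4, and Nr3c2, the mineralocorticoid receptor gene, had 3. Of 108 Zbtb20 windows 87, 78 and 84 had a peak at 24 h, against 61, 67 and 65 at 12 h, and of 63 Nr3c2 windows 46, 45 and 52 at 24 h, against 32, 37 and 37 at 12 h. The 24 h libraries were apart from the 12 h libraries at both genes. That held at 5 of the 10 list genes with 20 or more windows, against 27.7% of all genes of that size. Of the 51 striatal windows 1 was a hippocampus-only window, and of the 23 inhibitory neuron windows none was. A window with a peak in any cortex library at 6 h cannot belong to that class. Cortex library 1 at 6 h after LPS had a peak at 64.3% of the 24 h windows, which barred most of them by definition. The part of hippocampal tissue in these calls was not tested. Of windows with no peak in any of the 11 hippocampus libraries, 22 of 378 striatal (5.82%) and 13 of 191 inhibitory neuron windows (6.81%) were called towards 24 h, against 2.31% of all 84007 such windows.

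**Figure D4:**
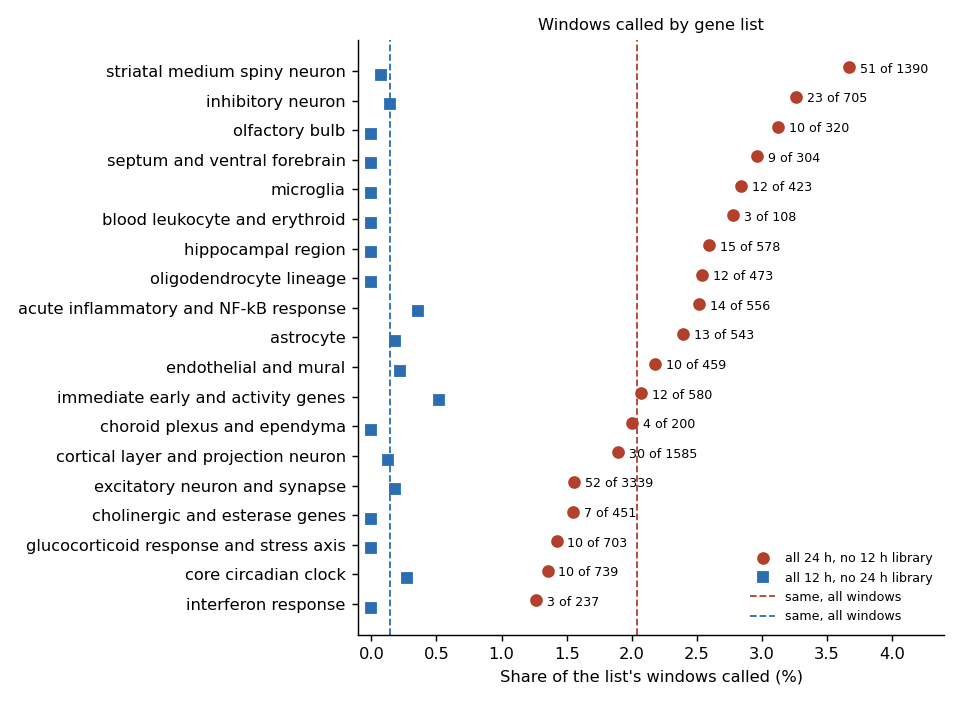
The share of each list's windows called towards 24 h (circles, with counts) and towards 12 h (squares), with dashed lines at 2.04% and 0.14% for all windows. The striatal list lies highest at 3.67% and the interferon list lowest at 1.27%.

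Inflammatory genes had called windows on both sides. Of 556 windows of acute inflammatory and NF-kB response genes 14 (2.52%) were called towards 24 h and 2 (0.36%) towards 12 h. Under the stricter call 9 (1.62%) were called towards 24 h and none towards 12 h, against 0.691% of all windows towards 24 h. Of the 14 windows, 3 were hippocampus-only and 7 had a peak in all 11 hippocampus libraries. Among all windows called towards 24 h these classes held 3.62% and 24.2%. Of 106 list windows with no hippocampus peak 1 (0.943%) was called towards 24 h, against 2.31% of all 84007 such windows. Tlr2, a receptor for bacterial lipoproteins, had 2 windows called towards 24 h outside its body. At chr3:83828085-83828585 the −log10 q was 36.3, 28.8 and 17.9 in the 24 h libraries, and at chr3:83820025-83820525 it was 17.4, 6.5 and 3.7. Of the 8 Tlr2 windows 6, 6 and 7 had a peak at 24 h, against 3, 5 and 4 at 12 h, which are apart. With 8 windows Tlr2 lies below the 20 for which a share over all genes was taken. The first of the pair also had a peak in cortex libraries 1 and 4 at 6 h after LPS and in neither saline library.

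Vcam1, an adhesion molecule of activated endothelium, had 1 such window (chr3:116148270-116148770), with a −log10 q of 42.5, 20.2 and 6.6 in the 24 h libraries. The cytokine gene Il6 had a window 11698 bp away (chr5:30000916-30001416) with a fold of 3.52, 3.04 and 3.89. Nfkbia and Nfkbiz, inhibitors in the NF-kB pathway that are themselves induced by it, had 1 window each, and Il6ra, the interleukin 6 receptor gene, had 2. Of the 11 genes of this list with 20 or more windows, 3 had more peaks in every 24 h than in every 12 h library. That is near the 27.7% of all genes of that size. Among the 3 was Vcam1 with 18, 18 and 18 of 22 windows at 24 h, against 12, 17 and 14 at 12 h. Of 24 Nfkbia windows 20, 19 and 20 had a peak at 24 h, against 18, 18 and 19 at 12 h, touching at 19. Tnfaip3, an inhibitor of NF-kB signalling, had 17, 20 and 26 of 29 at 24 h, against 16, 17 and 23 at 12 h, and Il1b 11, 14 and 14 of 17 at 24 h, against 12, 12 and 13 at 12 h, both with overlap. On the 12 h side stood single windows of Ccl4, a chemokine gene, and of Osmr, the oncostatin M receptor gene, with a highest −log10 q of 3.2 in each.

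Interferon response genes had 3 of 237 windows (1.27%) called towards 24 h and none towards 12 h, the lowest share of the 19 lists. Glucocorticoid response and stress axis genes had 10 of 703 (1.42%) and none. Of 31 windows of Fkbp5, a glucocorticoid-induced chaperone partner of the receptor, 23, 15 and 23 had a peak at 24 h, against 13, 16 and 20 at 12 h, with overlap. Nr3c1, the glucocorticoid receptor gene, had 43, 45 and 48 of 62 at 24 h, against 43, 39 and 40 at 12 h, and the groups met at 43. Cholinergic and esterase genes, the list nearest to the target of DFP, had 7 of 451 (1.55%) and none, with 3 at Chrm3 and 2 at Chrm2, both muscarinic receptor genes.

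Immediate early and activity genes had 12 of 580 windows (2.07%) called towards 24 h and 3 (0.517%) towards 12 h. Jun, a subunit of AP-1, and Egr2, a zinc finger factor induced by activity, had 3 each towards 24 h. Of 24 Jun windows 21, 17 and 19 had a peak at 24 h, against 13, 14 and 15 at 12 h, and of 20 Egr2 windows 18, 17 and 19 at 24 h, against 14, 14 and 15 at 12 h. Both were apart. Fos had 18, 17 and 19 of 25 at 24 h, against 18, 16 and 19 at 12 h. The 3 windows towards 12 h belonged to Homer1, a postsynaptic scaffold gene (chr13:93354316-93354816, fold 2.19, 2.52 and 2.63 in 12 h libraries 1, 3 and 4), to Gadd45b, a stress and activity gene (chr10:80938767-80939267, fold 1.97, 2.24 and 2.45), and to Klf10 (chr15:38361920-38362420, fold 2.03, 2.66 and 2.08). All are weak peaks, and 1 of the 24 h libraries had an interval touching the Gadd45b window.

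The clock genes were of interest because the times lie 12 h apart. Core circadian clock genes had 10 of 739 windows (1.35%) called towards 24 h and 2 (0.271%) towards 12 h. Npas2, a partner of BMAL1, had 3 towards 24 h and 1 towards 12 h, Rora 2 towards 24 h, and Arntl, which encodes BMAL1, Cry1, Nr1d2, Bhlhe41 and Csnk1e 1 each. Rorb had the other 12 h window. Of the 10 clock genes with 20 or more windows, 2, Rora and Csnk1e, had more peaks in every 24 h than in every 12 h library. Among all genes of that size this held at 27.7%. At Arntl 57, 54 and 52 of 76 windows had a peak at 24 h, against 48, 46 and 53 at 12 h. At Npas2 they numbered 62, 56 and 62 of 85 at 24 h, against 55, 68 and 61 at 12 h. Per3, a repressor of the clock, had 7, 8 and 10 of 21 at 24 h, against 12, 10 and 10 at 12 h.

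Other clock genes had no called window. Dbp, the output gene with 4 windows, had a peak at all 4 in all 6 libraries. Per1 had 8, 8 and 9 of 10 windows at 24 h, against 8, 9 and 7 at 12 h, and Per2 8, 7 and 9 of 12 at 24 h, against 8, 8 and 8 at 12 h. Nr1d1, which encodes REV-ERB alpha, had 6, 6 and 6 of 7 at 24 h, against 7, 6 and 6 at 12 h. Clock had 8, 10 and 11 of 16 at 24 h, against 13, 8 and 9 at 12 h, and Cry2 14, 14 and 12 of 15 at 24 h, against 11, 14 and 13 at 12 h. Arntl2, Bhlhe40, Ciart, Csnk1d, Fbxl21, Hlf, Nfil3 and Tef had none called either. In all genes of this paragraph the libraries of the 2 times overlapped or met.

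**Figure D5:**
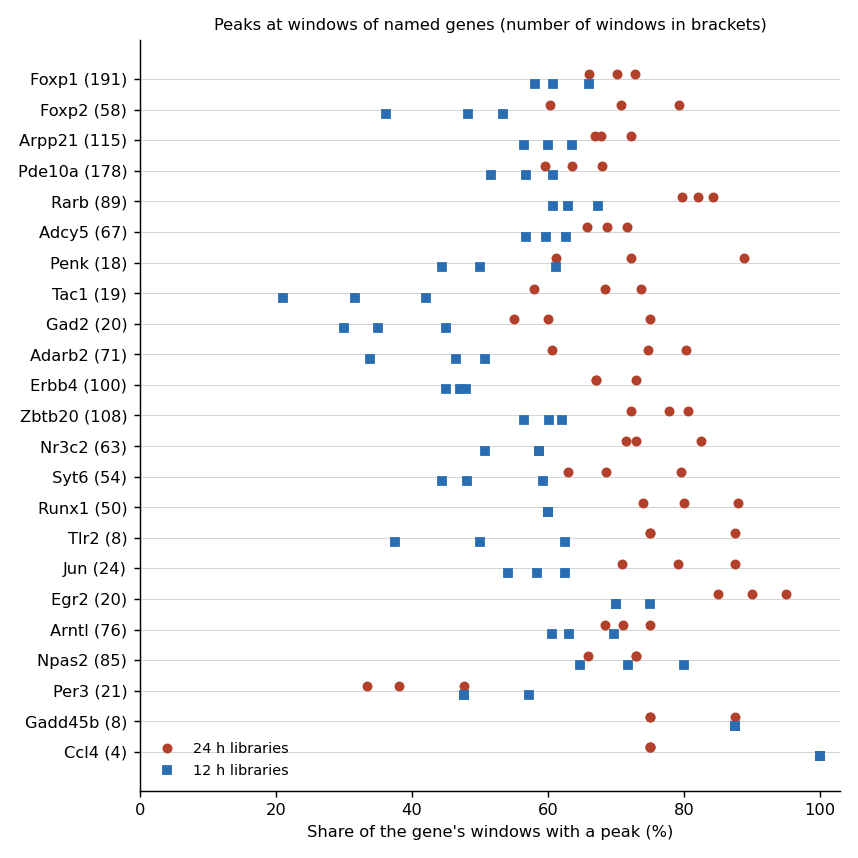
For 23 named genes, the share of the gene's windows with a peak in each 24 h library (circles) and each 12 h library (squares), with the number of windows in brackets; points that coincide overlap. Foxp2, Tac1, Gad2, Erbb4, Zbtb20 and Egr2 have all 24 h libraries to the right of all 12 h libraries, while Arntl, Npas2 and Per3 overlap or meet. Among all genes with 20 or more windows, 27.7% have every 24 h library above every 12 h library.

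Glial and blood lists had shares above the 2.04% of all windows. Endothelial and mural genes (2.18%) and choroid plexus and ependyma genes (2.0%) stood near it. Microglia genes had 12 of 423 windows (2.84%) called towards 24 h, 4 of them at Runx1 and 2 at Sall1, both transcription factor genes of microglia, and none towards 12 h. Of 50 Runx1 windows 40, 37 and 44 had a peak at 24 h, against 30, 30 and 30 at 12 h. Irf8, a factor of microglia and of the interferon response, had 1 window 26707 bp away (chr8:120709151-120709651) with a −log10 q of 16.6, 10.9 and 10.7 in the 24 h libraries. Astrocyte genes had 13 of 543 (2.39%) and 1, at Fgfr3. Gja1, the astrocytic connexin 43, had a window with 20.0, 15.7 and 5.4. Oligodendrocyte lineage genes had 12 of 473 (2.54%) and none, endothelial and mural genes 10 of 459 (2.18%) and 1, at Vwf, and choroid plexus and ependyma genes 4 of 200 and none. Blood leukocyte and erythroid genes had 3 of 108 (2.78%) and none. Under the stricter call astrocyte genes had 7 windows towards 24 h (1.29%) and blood genes 2 (1.85%), against 0.691% of all windows. Microglia genes then had 3 (0.709%), near that share. Oligodendrocyte lineage genes had 3 (0.634%) and endothelial and mural genes 2 (0.436%), both below it.

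By number of windows, the genes with most calls towards 24 h were long genes, most of them neuronal. Tenm2, a teneurin of synaptic adhesion, spans 1230.4 kb and had 16 of 291 windows called towards 24 h. Of its windows 205, 189 and 220 had a peak at 24 h, against 164, 171 and 176 at 12 h, without overlap. The same held at 27.7% of all genes with 20 or more windows. Auts2, a regulator of neuronal transcription and migration, had 13 of 297, Dpp6, a potassium channel subunit, 12 of 215, Rbfox1, a neuronal splicing factor, 12 of 519 with 1 towards 12 h, and Nrxn3, a presynaptic adhesion gene, 11 of 391. Immp2l, Cntnap2, Robo2 and Dlg2 had 10 each and Lrp1b 9. Immp2l, a mitochondrial inner membrane peptidase gene, had the highest share among them, 8.85% of 113 windows, with a peak at 94, 81 and 87 of them at 24 h, against 50, 71 and 63 at 12 h. In all, 3671 of 18853 genes with windows had at least 1 called towards 24 h, 431 had 3 or more, and 435 had any called towards 12 h. Among genes with 20 or more windows the median share called towards 24 h was 0.88%.

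Towards 12 h no gene had more than 2 called windows. The 5 that led by the rule for named genes, with 2 windows each, were Hspa12a, Arhgap39, Birc6, Usp34 and Myo5a, the last a myosin motor of neurons. Of 60 Myo5a windows 41, 39 and 42 had a peak at 24 h, against 39, 41 and 44 at 12 h, so the call of 2 windows did not go with more peaks over the gene. Birc6, an inhibitor of apoptosis, had 21, 21 and 24 of 47 at 24 h, against 22, 23 and 25 at 12 h. Under the stricter call a window at the start of Shh, the Sonic hedgehog ligand (chr5:28465537-28466037), had a fold of 2.52, 4.93 and 2.58 in 12 h libraries 1, 3 and 4, and one near Adrb1, a beta adrenergic receptor gene (chr19:56666565-56667065), 2.69, 3.86 and 3.14. Both were chosen after their values were seen.

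Ranked by the peak that was weakest among the 3 libraries, the 10 highest called windows in each direction were touched by peaks of the other time. On the 24 h side they were nearest to Pgrmc2, Rabgap1, Pla2g15, Sat1, Exoc5, Grm8, Ppp1r3a, Rptor, Ssna1 and Mkrn1, and 8 of the 10 lay within 1 kb of a gene start. In 9 of the 10 an interval touched the window in all 3 12 h libraries, and in the other 1 in 2 of them. On the 12 h side, led by Tmem123, Hdhd5, Zfp180 and Pim1, a kinase gene, all 10 lay within 1 kb of a start, with a touching interval in all 3 24 h libraries for 9 and in 2 for the other. At Pgrmc2 the fold was 9.58, 9.16 and 9.40 in the 24 h libraries and an interval touched the window in all 3 12 h libraries. None of these 20 counts as a site open at 1 time only.

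The 15 highest windows of the stricter call towards 24 h, chosen after the data were seen, were of another kind. None lay within 1 kb of a gene start, and 6 had no protein-coding gene within 100 kb. According to the authors' deposited table, 14 of the 15 lay in regions higher at 24 h than in saline. Of all windows called towards 24 h, 17.9% touched such a region. The regions were found with the same 24 h libraries in which these 15 windows ranked highest, so the count is no independent support. All 15 had a peak in cortex library 1 at 6 h after LPS, 1 in library 3 and 8 in library 4 of that group, and 8 and 2 in saline libraries 2 and 3. They included the Tlr2 window above, a window inside Zbtb20 (chr16:43458552-43459052, fold 6.39, 6.43 and 7.32) and one inside Clic6, a chloride channel protein gene of choroid plexus (chr16:92510989-92511489, fold 8.45, 8.42 and 5.76).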

How the data were processed

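ATAC-seq libraries were made from 20 to 30 mg of frozen tissue with the OMNI-ATAC protocol and sequenced as paired-end 50 bp reads, per the labels. The authors trimmed reads (Trim Galore 0.6.7, FastQC 0.11.9), aligned them (Bowtie2 2.4.4, GRCm38/mm10) and called peaks per library (MACS2 2.2.7.1), per the submitters' processing notes. The deposited peak lists give for each peak a score, a fold ratio over background, a −log10 p and a −log10 q, and the lowest −log10 p is 2 in each of the 6 libraries. The authors' deposited tables of regions against saline hold an FDR, a p-value adjusted by them, read here from a value that equals −10 times its log10. Peak lists hold no read counts, so sequencing depth is unknown and no interval for counting error can be given.

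Intervals with the same ends were counted once. Windows were centred on summits, taken in order of score relative to the library's total. Genes are protein-coding bodies of RefSeq (GRCm38.p6), assigned without strand. Of 482 list symbols 2 had no match (Mx1 and Mx2). Library values were compared by exact two-sided permutation tests over 20 splits, with Benjamini-Hochberg adjustment, and p-values measure the spread between animals. The comparison's members and the gene lists were chosen with earlier results of these data known. Named genes are the 10 with the largest net number of calls in each direction, the 10 best-ranked windows, up to 3 genes a list with most calls, the clock genes and genes with called starts, and a selection is printed, with some items not reported here; others were chosen after their values were seen, among them those named for no or few calls. Python 3.11.15, numpy 2.4.6, pandas 2.3.3, scipy 1.17.1, numba 0.67.0 and matplotlib 3.10.9 were used, and the code that calls windows was tested on simulated data. Alternatives were peak strength and list length, overlap, window width, merged intervals, gene distance, left-out libraries and a replicate block.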

Additional observations from a re-analysis of the deposited data

Results flagged for a closer look

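Cortex library 1 at 6 h after LPS, which took no part in the calls, had a peak at 64.3% of the windows called towards 24 h, above both cortex saline libraries with 34.3% and 14.6%. The other 6 h libraries had 11.1% and 27.7%. Over all windows the same 3 libraries had 63.5%, 53.4% and 63.3%, so replicates 1 and 4 had nearly equal shares over all windows and unequal ones here. Under the stricter call the shares were 79.8%, 12.1% and 32.2%. A single library stands behind the 64.3%, and its cause was not tested.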

How the results depend on the processing

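Read depth is not in the peak lists, and both counts moved with the length of the lists. With 50000, 100000, 150000 and 217207 highest peaks per library the 24 h count was 454, 1040, 1753 and 3308, the 12 h count at the last pair 1074 and 1388, and the 24 h share of calls 52.12%, 58.79%, 62.01% and 70.44%. At a −log10 q of 5 or more there were 168 windows towards 12 h and a share of 96.88%. Allowing 1 library of the other time gave 17579 and 2716 windows (86.62%). The stricter call gave 2539 and 232 (91.63%), and windows with no hippocampus peak 1942 and 149 (92.87%), both chosen after seeing the data. The share was 91.45% with 80% overlap, 94.28% with merged intervals and 92.64% with windows of 125 bp to each side. Leaving out a library loosens the call by construction: the 24 h count ran 9740 to 15493, moving over 1.5 times for each library except 12 h replicate 1, the 12 h count 863 to 4209, moving for each, and the share 78.64% to 94.01%. The interval difference ran 23834 to 42377. The hippocampus difference at 24 h windows ran −2.06 to 0.42, its sign turning without hippocampus 12 h replicate 3, and was 0.0684 and 1.46 with 50000 and 100000 peaks; the cause was not tested. At 12 h windows it ran −3.78 to −1.88. Of 38 list counts 36 stayed within 1.5 times with 1 bp overlap, 27 with genes within 10 kb, 20 inside gene bodies and 6 with 100000 peaks. With 217207 peaks a library 9 of the 38 stayed, and with 1 library left out 12 to 20 did. Same-numbered libraries of the 2 times came from different animals, and their deviations correlated at −0.014, −0.008 and 0.007. Whether a replicate number marks a shared batch was not tested. With a replicate block the interval difference was 32429 (exact sign-flip p = 0.25, the smallest possible) and the hippocampus differences −0.987 and −2.66.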

Other observations

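Windows called towards 24 h lay closer together than those called towards 12 h: 539 of 7504 (7.18%) were within 10 kb of another, against 2 of 514 (0.389%), counts that also follow from the number of windows. The densest stretch held 7 in 200 kb (chr12:106273513-106473763).

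When hippocampus-only windows were defined without cortex library 1 at 6 h after LPS and saline library 2, a choice made after seeing the data, 32186 windows qualified. The share with a peak was 22.8%, 16.3% and 22.0% in the 24 h cortex libraries, against 5.31%, 8.07% and 9.65% in the 12 h cortex libraries, and 15.1% and 18.8% in the 2 libraries left out of the definition.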
